A study of Mus musculus with 125 samples.

Results

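The nuclear-encoded genes of the mitochondrial respiratory chain were followed through single mouse embryos at the 2-cell stage. They were taken by symbol, as every row whose mouse symbol starts with Nduf, Uqcr, Sdh or Atp5 or with Cox4 to Cox8 and does not end in the mark of a pseudogene (-ps). The rule gave 102 of the 43421 rows of the deposited table, which carry 101 symbols because Atp5o has 2 rows, and it left out 9 -ps rows. Complex I has 49 members, complex II 8, complex III 8, complex IV 19 and complex V 18. Of the 102 rows 12 are assembly factors, 8 named Ndufaf and 4 named Sdhaf, and 90 have subunit symbols. RefSeq annotates 99 of the rows as protein-coding genes and 3 as pseudogenes although their symbols lack -ps (Ndufa11b, Ndufs6b and Cox6c2). Over all embryos 27 members averaged at least 100 counts per 1000000 counts of the library (CPM), 48 averaged 10 to 100 CPM, 22 averaged 1 to 10 CPM and 5 stayed under 1 CPM. The filter on low counts kept 98 members for testing and dropped Ndufa11b, Ndufa4l2, Ndufb4c and Cox8b.

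Complex I takes electrons from NADH and complex II, which is also an enzyme of the tricarboxylic acid cycle, takes them from succinate. Both pass them through ubiquinone to complex III, from which cytochrome c carries them to complex IV, where oxygen is reduced. Complexes I, III and IV pump protons across the inner mitochondrial membrane, and complex V, the ATP synthase, makes ATP from their return. All subunits of complex II are encoded in the nucleus, whereas the other complexes combine nuclear subunits with mitochondrially encoded ones. Early mouse embryos live on mitochondria and on much RNA inherited from the oocyte, and the first large wave of embryonic transcription comes at the 2-cell stage.

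Each library came from 1 embryo. The labels give every sample 1 protocol, written for C57BL/6 x JF1/Ms zygotes, which were chosen at 10 h after fertilization, had their second polar body taken out with a micromanipulator, and were lysed whole as embryos at 34 h. The labels used here leave out how the parthenotes were made and whether they were handled otherwise. Zygotes of the crosses C57BL/6 x JF1/Ms and JF1/Ms x C57BL/6 were scored as holding 1 pronucleus (1PN) or 2 separate pronuclei (2PN). Some embryos scored 1PN were labelled parthenote in silico by the submitters and are called 1PN called parthenogenetic here, with 8 of C57BL/6 x JF1/Ms and 4 of JF1/Ms x C57BL/6. The 31 parthenotes are C57BL/6 embryos that were labelled parthenotes from the outset, and they therefore differ from the hybrid 2PN embryos in strain as well as in kind. The 1PN embryos not called parthenogenetic number 11 and 3 in these crosses, and the 2PN embryos 43 and 21. The labels do not say which strain was the mother, nor whether embryos of a group share parents, so p-values measure the spread between embryos. In a library of a whole embryo, fewer cells and less RNA per cell cannot be told apart.

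The 121 libraries held 533276 to 4887270 counts, with a median of 3392410, and 11 held under 2000000 (2 of JF1/Ms x C57BL/6 called parthenogenetic, 1 parthenote, and 7 and 1 of the 2PN embryos of JF1/Ms x C57BL/6 and C57BL/6 x JF1/Ms). All 7 markers of oocytes and 2-cell embryos were counted in every group. The 9 markers of cumulus and granulosa cells summed to medians of 1.601 CPM in JF1/Ms x C57BL/6 called parthenogenetic (0 to 4.49 CPM) and 34.99 to 72.8 CPM in the other groups, and the 8 of sperm and testis to medians of 0 to 6.48 CPM. Has2, Ptx3, Foxl2, Fshr and Inha had a median of 0 in every group, and blood and immune markers had medians of 0.795 to 36.2 CPM. The 4 embryos of JF1/Ms x C57BL/6 called parthenogenetic, numbered 1, 2, 3 and 7, stand apart. Their libraries held 3768470, 3521230, 1532060 and 1002460 counts, and 30, 14, 9 and 18 of the 98 tested members had no count in them, against 2 to 20 (median 7) in the 2PN embryos of the cross. Their oocyte and 2-cell marker sums were 4111, 6359.9, 3475 and 3229 CPM, against 354 to 5190.2 CPM (median 786) in those 2PN embryos. Embryo 10 of C57BL/6 x JF1/Ms called parthenogenetic had the highest such sum of its group, 4841 CPM in a range of 1363 to 4841 CPM (median 1847). That sum was 622 to 2935 CPM (median 1532) in parthenotes and 504 to 2985 CPM (median 874) in 2PN embryos of C57BL/6 x JF1/Ms. Calls that these embryos decide are given with and without them.

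The level of each complex was first summed within each embryo. Set against 2PN embryos, the medians of these sums were lower in some complexes and higher in others, and the sums were not tested. Complex III summed to 320.3, 201, 313 and 152 CPM in embryos 1, 2, 3 and 7 of JF1/Ms x C57BL/6 called parthenogenetic and to 256 to 668 (median 442) CPM in those of the other cross, C57BL/6 x JF1/Ms. Among 2PN embryos it summed to 119.7 to 1519 (median 629.5) CPM in JF1/Ms x C57BL/6 and to 324 to 1023 (median 556) CPM in C57BL/6 x JF1/Ms. The medians of the called-parthenogenetic embryos were the lower ones in both crosses, and the ranges overlapped.

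Complex II ran the other way. Its sum was 175, 232, 145 and 96.8 CPM in the 4 embryos of JF1/Ms x C57BL/6 and 31.9 to 156 (median 96.5) CPM in C57BL/6 x JF1/Ms, against 20.8 to 245 (median 66.0) CPM and 23.3 to 155 (median 65.4) CPM in the 2PN embryos of the same crosses. The medians of 1PN embryos not called parthenogenetic, 92.3 CPM in JF1/Ms x C57BL/6 and 81.6 CPM in C57BL/6 x JF1/Ms, were also above the 2PN medians. Complex V summed to 1389, 1435, 3089.6 and 1677 CPM in the 4 embryos, of which only embryo 3 passed the 2PN median of the cross, 2883 CPM. Complex IV summed to 3875, 3884, 5776 and 3000.1 CPM in the same 4 embryos, against 1391 to 3668 (median 1995) CPM in 2PN embryos, so 3 of the 4 were above all 21. For C57BL/6 x JF1/Ms the complex IV medians were 2141 CPM in called-parthenogenetic and 2399 CPM in 2PN embryos. Cox8a, whose values per embryo are given further on, is part of this sum.

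**Figure D1:**
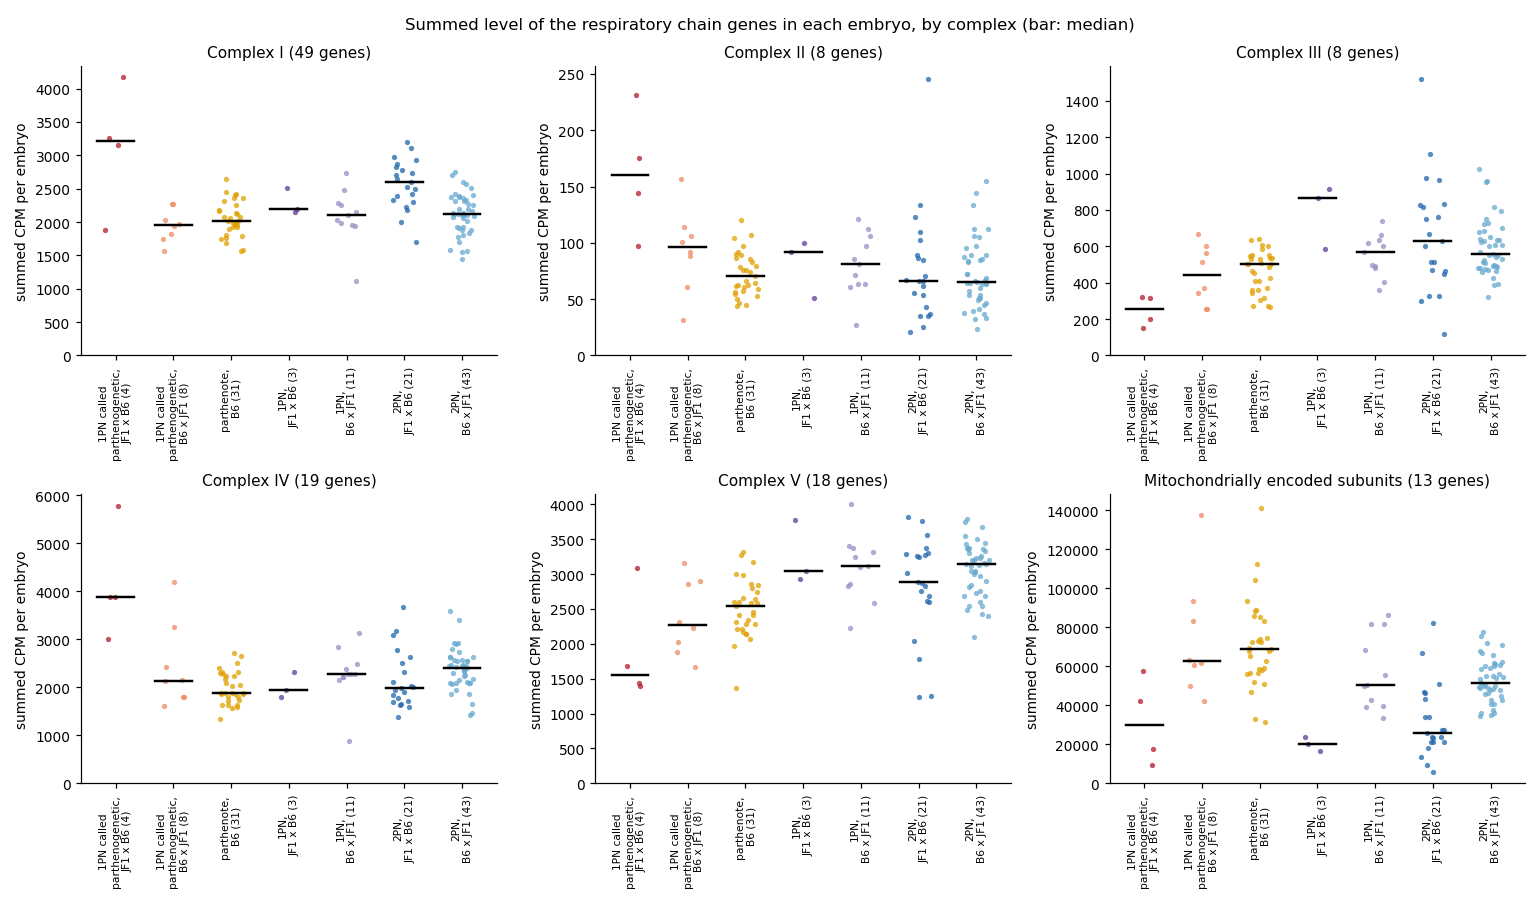
Summed CPM of the members of each complex, and of the 13 mitochondrially encoded subunits, in each embryo (points), with the median of each of the 7 groups as a bar. The medians of complex III and complex V are lower and that of complex II higher in the 1PN embryos called parthenogenetic than in the 2PN embryos of their cross, with overlapping ranges. For complex II the medians of 1PN embryos not called parthenogenetic are also above the 2PN medians.

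The question of the first comparison is what sets 1PN embryos called parthenogenetic apart from 2PN embryos, with both crosses in 1 fit that holds cross as a term (edgeR's quasi-likelihood test with Benjamini-Hochberg adjustment over 22785 genes, threshold 0.05). The catalytic subunits of complex II rose, and members of complexes III and V fell. In all, 15 of the 98 tested members rose and 32 fell. Of all genes tested 44.8% were called, 26.6% as higher and 18.3% as lower, so the share of members called is close to that of all genes while their direction leans to the lower side. The median log2 fold change of the members was -0.22, against 0.22 for all genes, a difference of -0.44. By complex, the calls were 7 higher and 16 lower in complex I, 4 and 1 in complex II, 0 and 3 in complex III, 3 and 4 in complex IV, and 1 and 8 in complex V. Scaling bears on the split, since DESeq2's size factors in place of TMM factors moved the median of all genes up by 0.18 and gave 25 members higher and 27 lower. With them complex I turned to 15 higher and 13 lower and complex IV to 5 and 2, while complexes II, III and V kept the same counts in each direction. Set against all genes the median of the members then differed by -0.47, and no named member changed sign. Leaving out embryos 1 and 2 of JF1/Ms x C57BL/6 gave 7 higher and 23 lower, and leaving out embryo 10 of C57BL/6 x JF1/Ms gave 14 and 26.

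**Figure D2:**
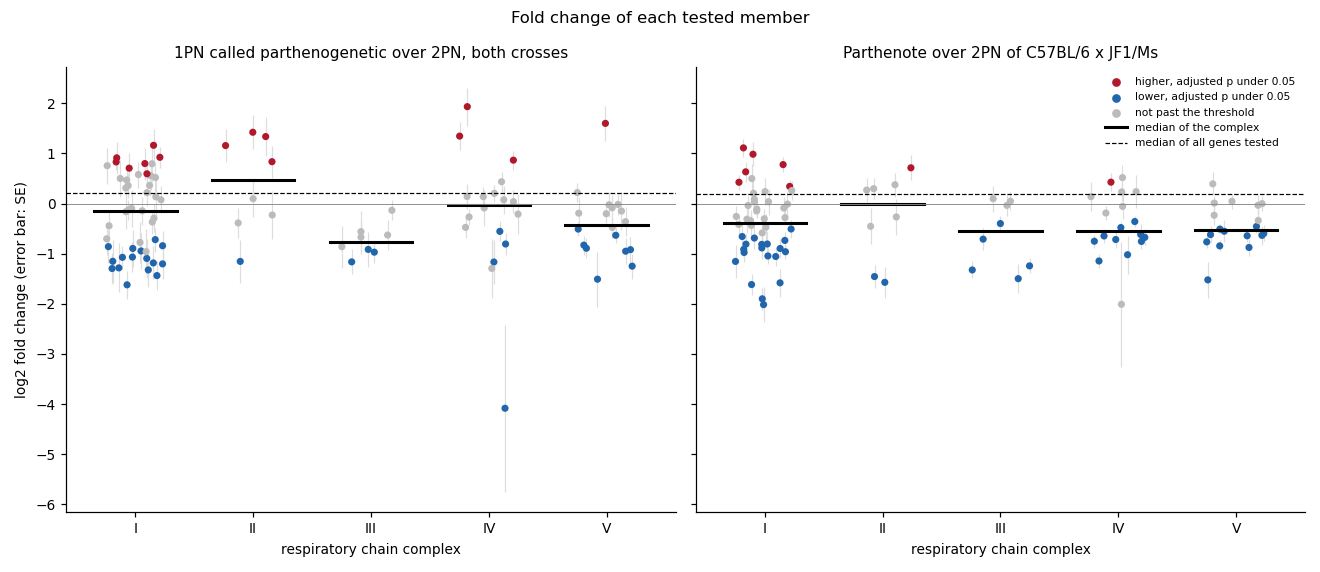
Log2 fold change of each tested member (points, bars are SE) by complex, for 1PN called parthenogenetic over 2PN in both crosses (left) and parthenote over 2PN of C57BL/6 x JF1/Ms (right). Solid bars are the medians of each complex and the dashed lines the medians of all genes tested, and the medians of complexes I, III, IV and V lie below the dashed line in both panels.

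Complex II had more members higher than lower under both scalings. Sdhb, its iron-sulfur subunit (ENSMUSG00000009863, chr4:140961271-140979198 in GRCm38.p6), had 1.86, 87.5, 52.9 and 31.9 CPM in embryos 1, 2, 3 and 7 of JF1/Ms x C57BL/6 called parthenogenetic, against 0 to 64.2 CPM (median 5.35) in 2PN embryos of the cross. In C57BL/6 x JF1/Ms it had 9.85 to 58.6 CPM (median 16.1) in called-parthenogenetic embryos and 0.239 to 27.3 CPM (median 8.62) in 2PN embryos. The groups overlapped, and 11 of 12 called-parthenogenetic embryos lay above the 2PN median of their cross, embryo 1 of JF1/Ms x C57BL/6 being the exception. The log2 fold change was 1.42 ± 0.34 (SE, edgeR adjusted p = 0.000418).

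Sdha, the flavoprotein that oxidises succinate (ENSMUSG00000021577, chr13:74322255-74350240), had 105, 38.1, 33.9 and 27.9 CPM in the 4 embryos of JF1/Ms x C57BL/6, all above the 2PN median of 10.6 CPM. In the other cross it had 4.29 to 67.4 CPM (median 25.8) in called-parthenogenetic and 0.503 to 43.6 CPM (median 13.9) in 2PN embryos. Its log2 fold change over both crosses was 1.16 ± 0.32 (edgeR adjusted p = 0.00219). Both calls hold over both crosses without embryos 1 and 2 (1.22 for Sdhb and 0.91 for Sdha) and without embryo 10 (1.21 and 0.98). Within C57BL/6 x JF1/Ms alone they rest on embryo 10. There the log2 fold changes were 1.07 ± 0.37 and 0.95 ± 0.36 (edgeR adjusted p = 0.0203 and 0.0333), and neither passed without that embryo (0.62 and 0.66).

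Of the 4 assembly factors of complex II 2 were called, both higher, where 44.8% of all genes were called (26.6% higher and 18.3% lower). Sdhaf2, which helps attach the flavin to Sdha, rose by 0.84 ± 0.32 and Sdhaf4, which helps join Sdha to Sdhb, by 1.34 ± 0.39 on the log2 scale (edgeR adjusted p = 0.0258 and 0.00315). Neither passed without embryos 1 and 2 (0.548 and 0.546). Sdhd, a membrane anchor of the complex, fell instead. It had 14.9, 0, 6.53 and 5.99 CPM in embryos 1, 2, 3 and 7 and 0 to 34.2 CPM (median 3.86) in the C57BL/6 x JF1/Ms embryos called parthenogenetic. In 2PN embryos it had 0 to 49.2 CPM (median 11.6) and 0 to 76.1 CPM (median 14.2) in the same order of crosses. Its log2 fold change was -1.15 ± 0.43 (edgeR adjusted p = 0.0239), with wide overlap between groups. The other anchor, Sdhc, was not called (-0.39 ± 0.30, edgeR adjusted p = 0.289).

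Promoters of members of complexes II and V are shown because most calls in the first comparison were higher in complex II and lower in complex V. Neither complex had calls in 1 direction only, and both hold the same short motifs. Sequences are from RefSeq's table of GRCm38.p6, from 250 bases before to 50 after a start site, written along the gene. Of the members 80 had an entry, 5 of them with 2 start sites (Atp5c1, Atp5d, Atp5j, Ndufa5 and Ndufa7), and a gene was counted as holding a core when any of its entries did. The core of the NRF1 site, GCGCA followed by any base and GCGC, was searched on both strands and was in 21 of the 80 (26.2%), against 5.19% of the 27025 genes in the table. The core of the ETS site used by GABPA, CCGGAAG, was also in 21 (26.2%), against 9.93% of all. Both factors are known activators of respiratory chain genes. Complex II had the NRF1 core in 4 of 7 promoters and the ETS core in 5 of 7, and complex V had the NRF1 core in 6 of 15 and the ETS core in 5 of 15. The 2 cores share no base in the 5 promoters printed, which were chosen after their values were seen. Capitals mark the cores, on either strand.
Sdhb, chr4:140961021-140961320, plus strand: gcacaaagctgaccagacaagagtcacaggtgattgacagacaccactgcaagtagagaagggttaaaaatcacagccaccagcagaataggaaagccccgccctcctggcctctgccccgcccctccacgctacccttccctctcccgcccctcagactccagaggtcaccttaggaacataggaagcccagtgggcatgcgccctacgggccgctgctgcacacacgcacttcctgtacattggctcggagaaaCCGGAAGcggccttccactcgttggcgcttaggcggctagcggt
Sdha, chr13:74350191-74350490, minus strand: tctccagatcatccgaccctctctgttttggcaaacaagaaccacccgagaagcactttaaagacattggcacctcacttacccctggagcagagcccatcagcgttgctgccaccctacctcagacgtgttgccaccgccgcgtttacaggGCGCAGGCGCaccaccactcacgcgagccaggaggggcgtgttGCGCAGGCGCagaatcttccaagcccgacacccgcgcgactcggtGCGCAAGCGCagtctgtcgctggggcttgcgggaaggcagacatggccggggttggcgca
Sdhd, chr9:50603800-50604099, minus strand: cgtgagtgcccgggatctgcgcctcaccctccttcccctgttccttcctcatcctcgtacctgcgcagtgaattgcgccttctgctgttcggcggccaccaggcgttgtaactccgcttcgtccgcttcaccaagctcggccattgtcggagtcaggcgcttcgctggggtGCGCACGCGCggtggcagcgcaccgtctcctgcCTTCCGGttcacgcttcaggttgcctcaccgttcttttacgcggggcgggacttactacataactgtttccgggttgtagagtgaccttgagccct
Atp5c1, chr2:10080383-10080682, minus strand: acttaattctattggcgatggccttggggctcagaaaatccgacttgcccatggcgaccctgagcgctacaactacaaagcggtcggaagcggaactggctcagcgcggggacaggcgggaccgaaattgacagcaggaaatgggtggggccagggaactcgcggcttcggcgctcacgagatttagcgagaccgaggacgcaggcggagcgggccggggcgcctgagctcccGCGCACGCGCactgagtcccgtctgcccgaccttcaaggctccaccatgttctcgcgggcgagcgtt
Atp5g3, chr2:73911277-73911576, minus strand: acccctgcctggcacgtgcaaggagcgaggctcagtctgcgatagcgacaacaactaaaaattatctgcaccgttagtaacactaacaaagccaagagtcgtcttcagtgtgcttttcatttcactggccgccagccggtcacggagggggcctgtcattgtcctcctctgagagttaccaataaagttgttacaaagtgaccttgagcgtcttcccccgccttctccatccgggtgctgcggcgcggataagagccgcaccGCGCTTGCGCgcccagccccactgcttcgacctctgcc

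Sdha, which rose, has 3 NRF1 cores, and Atp5c1 and Atp5g3, which fell, have 1 each. Sdhb, which rose, has 1 ETS core, and Sdhd, which fell, has 1 core of each kind. Over all tested members with a promoter entry, 5 rose and 8 fell of the 21 with the NRF1 core, and 8 rose and 20 fell of the 58 without it, in the comparison of 1PN called parthenogenetic with 2PN embryos. For the ETS core, 3 rose and 8 fell of 21 with it and 10 rose and 20 fell of 58 without it. The other entry of Atp5c1, chr2:10080461-10080760, holds neither core. A match is a description of the letters and not a shown binding site.

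Complex I had calls in both directions, and which direction prevailed turned with the scaling, as given above. Ndufc1, a small accessory subunit of its membrane arm (ENSMUSG00000037152, chr3:51405479-51408955), was counted in only 1 of the 4 embryos of JF1/Ms x C57BL/6 called parthenogenetic, with 0, 0, 3.92 and 0 CPM. The 2PN embryos of that cross had 0.833 to 46.7 CPM (median 14.8). Called-parthenogenetic embryos of C57BL/6 x JF1/Ms had 3.25 to 28.5 CPM (median 17.8) and the 2PN embryos 13.1 to 65.8 CPM (median 37.2). All 12 called-parthenogenetic embryos lay below the 2PN median of their cross, and the log2 fold change was -1.62 ± 0.28 (edgeR adjusted p = 1.77e-06).

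Ndufa11, an accessory subunit of the membrane arm, had 7.03, 44.0, 20.9 and 49.9 CPM in the 4 embryos, against 1.88 to 389 CPM (median 228) in 2PN embryos of the cross. For C57BL/6 x JF1/Ms the values were 7.99 to 193 CPM (median 108) in called-parthenogenetic and 62.3 to 303 CPM (median 213) in 2PN embryos. Again all 12 were below the 2PN median of their cross, with a log2 fold change of -1.44 ± 0.29 (edgeR adjusted p = 4.32e-05). Reads shared with Ndufa11b could not be told apart for this gene. Ndufb10, another membrane-arm subunit, fell at a log2 fold change of -1.32 ± 0.33 (edgeR adjusted p = 0.000698), with 0, 10.2, 19.6 and 0 CPM in the 4 embryos against 20.8 to 299 CPM (median 147) in 2PN embryos, so that the groups did not overlap in that cross. In C57BL/6 x JF1/Ms alone Ndufb10 was not called, and with all embryos in its effect differed between the crosses.

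Core subunits of the matrix arm were among those that fell. Ndufs7 and Ndufs8, which carry iron-sulfur clusters, had log2 fold changes of -0.89 and -1.18 (edgeR adjusted p = 0.0372 and 0.00222). Ndufs7 did not pass without embryo 10 (-0.776). Ndufv1, which binds NADH, was not called (-0.96 ± 0.44, edgeR adjusted p = 0.069). Of the 8 assembly factors 5 fell (Ndufaf1, Ndufaf3, Ndufaf5, Ndufaf7 and Ndufaf8) and 1 rose, where 18.3% of all genes were called lower and 26.6% higher. Ndufaf1, Ndufaf5 and Ndufaf7 did not pass without embryos 1 and 2 (-1.263, -0.628 and -0.739), nor Ndufaf1 without embryo 10 (-1.15).

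The one that rose was Ndufaf4 (ENSMUSG00000028261, chr4:24898083-24905001). It had 544, 1465, 862 and 1298 CPM in the 4 embryos of JF1/Ms x C57BL/6 called parthenogenetic, against 103 to 971 CPM (median 273) in 2PN embryos. In the other cross it had 58.8 to 223 CPM (median 133) in called-parthenogenetic and 19.7 to 189 CPM (median 85.3) in 2PN embryos. The log2 fold change was 0.92 ± 0.21 (edgeR adjusted p = 0.000202), and 10 of 12 embryos lay above the 2PN median. Ndufab1, the mitochondrial acyl carrier protein, which also serves lipoic acid synthesis, rose in all 12 embryos relative to the 2PN median, by 0.83 ± 0.17 (edgeR adjusted p = 4.25e-05). Ndufs6 and Ndufa3, both accessory subunits, had log2 fold changes of 1.16 ± 0.32 and 0.91 ± 0.31 (edgeR adjusted p = 0.0022 and 0.0129). Neither passed without embryos 1 and 2, when they stood at 0.81 and 0.38. For Ndufs6 reads shared with Ndufs6b could not be told apart.

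All 3 calls in complex III were lower. Uqcr10, a small accessory subunit (ENSMUSG00000059534, chr11:4701968-4704344), had 36.6, 16.2, 94.0 and 93.3 CPM in embryos 1, 2, 3 and 7, against 22.99 to 365 CPM (median 155) in 2PN embryos of JF1/Ms x C57BL/6. The C57BL/6 x JF1/Ms values were 28.7 to 174 CPM (median 55.8) in called-parthenogenetic and 45.7 to 284 CPM (median 108) in 2PN embryos. The groups overlapped, with 11 of 12 embryos below the 2PN median and embryo 14 of C57BL/6 x JF1/Ms above it. The log2 fold change was -1.16 ± 0.25 (edgeR adjusted p = 8.92e-05). Uqcrq, also a small accessory subunit, fell at a log2 fold change of -0.97 ± 0.21 (edgeR adjusted p = 0.000124). Uqcrc1, a core protein, passed at -0.91 ± 0.36 (edgeR adjusted p = 0.0292), and that call was lost without embryo 10 or without embryos 1 and 2.

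In complex IV the accessory subunits Cox8a and Cox6b2 rose and Cox4i1 fell under either scaling. Cox8a (ENSMUSG00000035885, chr19:7215158-7217616) had 2076, 1767, 3206 and 2021 CPM in embryos 1, 2, 3 and 7 of JF1/Ms x C57BL/6, against 264 to 2089 CPM (median 517) in 2PN embryos. In the other cross it had 272 to 1919.7 CPM (median 488) in called-parthenogenetic and 315 to 1363 CPM (median 487) in 2PN embryos. All 4 embryos of JF1/Ms x C57BL/6 lay above the 2PN median of their cross, and in the other cross the 2 medians were close and embryo 10 was the highest. The log2 fold change over both crosses was 0.87 ± 0.19 (edgeR adjusted p = 0.000147).

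Cox6b2, known as the testis isoform of a subunit that faces the space between the membranes (ENSMUSG00000051811, chr7:4751792-4753094), had 228, 237, 182 and 63.8 CPM in the 4 embryos, against 3.82 to 134 CPM (median 22.7) in 2PN embryos. The C57BL/6 x JF1/Ms values were 56.4 to 832 CPM (median 207) in called-parthenogenetic and 21.1 to 548 CPM (median 121) in 2PN embryos, with overlap. The log2 fold change was 1.35 ± 0.28 (edgeR adjusted p = 7.26e-05), and it was 0.94 without embryos 1 and 2 and 1.15 without embryo 10, past the threshold each time. Cox4i1, the common form of the subunit at which ATP acts on the enzyme, had 50.3, 53.5, 62.0 and 43.4 CPM in the 4 embryos, against 23.1 to 511 CPM (median 96.9) in 2PN embryos, and fell at a log2 fold change of -0.81 ± 0.22 over both crosses (edgeR adjusted p = 0.00219). In C57BL/6 x JF1/Ms alone Cox4i1 was not called. Cox7a2 fell at a log2 fold change of -0.55 ± 0.20 (edgeR adjusted p = 0.0193), and Cox7c passed at -1.17 ± 0.45 (edgeR adjusted p = 0.0265). The Cox7a2 call was lost without embryos 1 and 2, and with DESeq2's size factors. The Cox7c call was lost without embryos 1 and 2 and without embryo 10. Cox6a2 and Cox7b2, the other members called, are low genes described with the isoforms.

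In complex V 8 members fell and 1 rose. Atp5g3, one of 3 genes for the c subunit of the rotating ring (ENSMUSG00000018770, chr2:73908447-73912464), had 26.01, 20.7, 289.8 and 192 CPM in the 4 embryos, against 24.7 to 608 CPM (median 368) in 2PN embryos of JF1/Ms x C57BL/6. For C57BL/6 x JF1/Ms the values were 56.8 to 217 CPM (median 130.1) in called-parthenogenetic and 85.1 to 480.1 CPM (median 246) in 2PN embryos. All 12 embryos lay below the 2PN median of their cross, with a log2 fold change of -1.25 ± 0.25 (edgeR adjusted p = 3.53e-05). Atp5c1, the central stalk subunit gamma, fell at a log2 fold change of -0.95 ± 0.26 (edgeR adjusted p = 0.00159), with 3.18, 30.1, 17.6 and 9.98 CPM in the 4 embryos against 11.1 to 187 CPM (median 99.3) in 2PN embryos. In C57BL/6 x JF1/Ms alone Atp5c1 was not called, and with all embryos in its effect differed between the crosses (-2.14).

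Atp5b, the catalytic subunit beta, fell at a log2 fold change of -0.51 ± 0.14, and Atp5g1, a second gene for subunit c, at -0.89 ± 0.19 (edgeR adjusted p = 0.00172 and 0.000117). Atp5h, Atp5j and Atp5k, which belong to the outer stalk and its membrane base, fell at log2 fold changes of -0.63, -0.83 and -0.92 (edgeR adjusted p = 0.000912, 0.000222 and 0.00177). Atp5d, subunit delta of the central stalk, passed at -1.51 ± 0.55 (edgeR adjusted p = 0.019), but not without embryos 1 and 2. The 1 member that rose was Atp5g2, the third gene for subunit c, at 1.6002 ± 0.34 (edgeR adjusted p = 6.94e-05), with 29.2, 26.7, 15.01 and 6.98 CPM in the 4 embryos and 0 to 18.9 CPM (median 1.602) in 2PN embryos of their cross. It did not pass without embryos 1 and 2 (0.813).

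**Figure D3:**
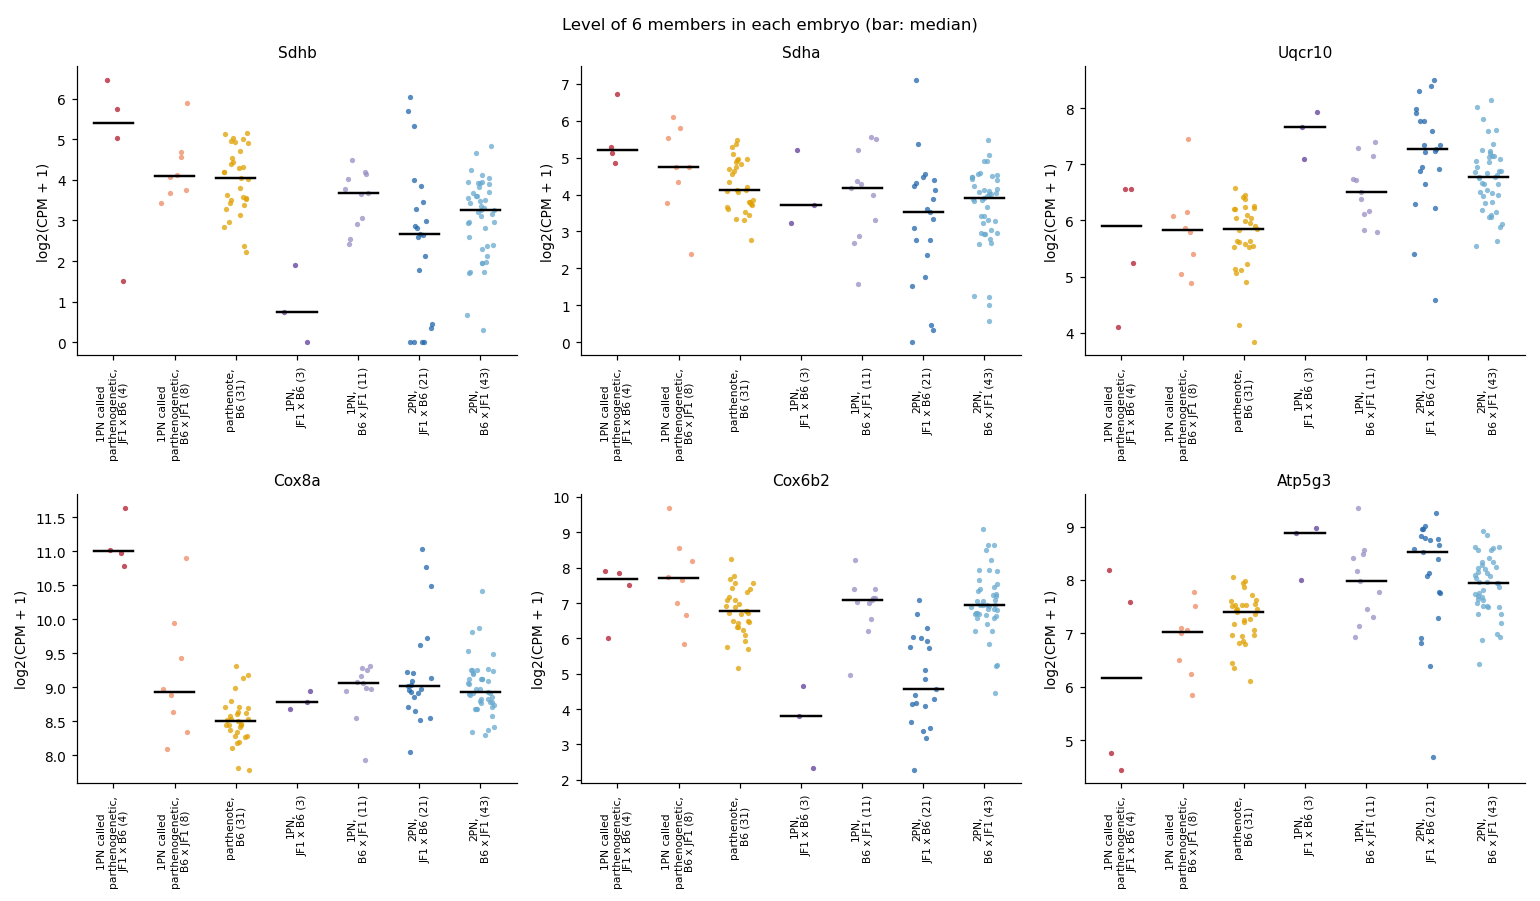
Level of 6 members in each embryo as log2(CPM + 1), by group, with the median as a bar. Sdhb and Sdha have higher medians, and Uqcr10 and Atp5g3 lower ones, in 1PN embryos called parthenogenetic than in 2PN embryos of either cross, whereas Cox8a is raised in all 4 of JF1/Ms x C57BL/6 and in embryo 10 of the other cross.

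Against 1PN embryos not called parthenogenetic, which had been scored alike under the microscope, the called-parthenogenetic embryos had members of complexes III and V lower and Sdhb, Cox8a and Cox6b2 higher. In the fit of both crosses 12 members rose and 28 fell, where 36.1% of all genes were called (20.6% higher and 15.5% lower). The counts were 7 and 23 without embryos 1 and 2, 12 and 24 without embryo 10, and 16 and 25 with DESeq2's size factors. The members named here as changed against 1PN embryos passed without embryos 1 and 2 and without embryo 10. Sdhb had 1.86, 87.5, 52.9 and 31.9 CPM in the 4 embryos of JF1/Ms x C57BL/6 called parthenogenetic, against 0.672, 0 and 2.71 CPM in its 3 1PN embryos, and rose by 1.43 ± 0.48 over both crosses (edgeR adjusted p = 0.0137). Cox8a had 2076, 1767, 3206 and 2021 CPM against 409, 493 and 438 CPM in these groups, which did not overlap, and rose by 1.04 ± 0.26 (edgeR adjusted p = 0.00115). Cox6b2 had 228, 237, 182 and 63.8 CPM against 4.03, 24.1 and 12.9 CPM, again with no overlap, and rose by 1.72 ± 0.40 (edgeR adjusted p = 0.000464). The values per embryo are those of JF1/Ms x C57BL/6 only, while the fold changes cover both crosses. In C57BL/6 x JF1/Ms, Cox8a held 18596 counts over 8 called-parthenogenetic embryos (12106 without embryo 10) and 19714.5 over 11 1PN embryos. For Cox6b2 the counts there were 7319 (4505 without embryo 10) and 5403. Neither cross was tested alone against 1PN embryos.

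Of the members that fell relative to 1PN embryos, Atp5g3 had 26.01, 20.7, 289.8 and 192 CPM in the 4 embryos against 468, 503 and 257 CPM in the 3 1PN embryos, of which embryo 6 lay within the range of the 4, and a log2 fold change of -1.41 ± 0.29 (edgeR adjusted p = 0.000139). Ndufc1 fell at a log2 fold change of -1.68 ± 0.32, Ndufs8 at -1.597 ± 0.39, Uqcr10 at -1.004 ± 0.29 and Atp5d at -2.16 ± 0.62 (edgeR adjusted p = 3.68e-05, 0.000848, 0.00457 and 0.00451). Sdha, called against 2PN embryos, did not pass against 1PN embryos (0.79 ± 0.43, edgeR adjusted p = 0.143).

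No member was called between 1PN embryos not called parthenogenetic and 2PN embryos. Of all genes tested 0.101% passed in edgeR's quasi-likelihood test, and 2 of the 98 members had an unadjusted p under 0.05 (Ndufb8 and Cox7b2, named after their values were seen). DESeq2 and limma voom also called 0 members. Among the members named above, the log2 fold change of 1PN over 2PN was -0.01 for Sdhb with an approximate 95% interval of -0.76 to 0.74, and -0.17 (-0.55 to 0.21) for Cox8a. It was -0.16 (-0.58 to 0.26) for Uqcr10 and 0.16 (-0.25 to 0.57) for Atp5g3. Differences inside these intervals were not detectable with 14 1PN embryos and 64 2PN embryos.

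Parthenotes of C57BL/6 were set against 2PN embryos of C57BL/6 x JF1/Ms, which also differ in strain. More members were lower than higher in parthenotes, with 8 higher and 47 lower of 98 tested (edgeR's quasi-likelihood test). Of all genes 50.9% were called, 29.1% higher and 21.8% lower. The median log2 fold change of the members was -0.44, against 0.18 for all genes, a difference of -0.63. With DESeq2's size factors, which raised the median of all genes by 0.197, the counts were 15 and 38. By complex the calls were 6 higher and 19 lower in complex I, 1 and 2 in complex II, 0 and 5 in complex III, 1 and 10 in complex IV, and 0 and 11 in complex V.

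Ndufs5, an accessory subunit of complex I, had 0 to 15.7 CPM (median 4.38) in parthenotes and 3.81 to 40.8 CPM (median 17.2) in 2PN embryos, and fell at a log2 fold change of -1.90 ± 0.23 (edgeR adjusted p = 1.91e-12). All 31 parthenotes lay below the 2PN median, although the ranges overlapped. Ndufaf1, an assembly factor, fell at a log2 fold change of -2.02 ± 0.35 and Ndufb10 at -1.62 ± 0.20 (edgeR adjusted p = 3.18e-07 and 3.11e-11). Ndufaf2, an assembly factor, and Ndufb11, a membrane-arm subunit, rose by 1.11 ± 0.18 and 0.78 ± 0.14 (edgeR adjusted p = 1.14e-07 and 1.57e-06), with all 31 parthenotes above the 2PN median in both. Ndufs4, an accessory subunit of the matrix arm, rose by 0.63 ± 0.19 (edgeR adjusted p = 0.00412).

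In complex II both anchors were lower in parthenotes. Sdhc had 0.295 to 13.2 CPM (median 4.03) in parthenotes and 2.42 to 42.5 CPM (median 10.3) in 2PN embryos, with a log2 fold change of -1.46 ± 0.22, and Sdhd of -1.57 ± 0.31 (edgeR adjusted p = 1.45e-08 and 6.41e-06). Sdhb rose by 0.71 ± 0.25 (edgeR adjusted p = 0.0113), with 26 of 31 parthenotes above the 2PN median, and it did not pass in an earlier form of the edgeR fit. Uqcr10 had 13.2 to 95.1 CPM (median 56.6) in parthenotes and 45.7 to 284 CPM (median 108) in 2PN embryos, and all 31 parthenotes lay below the 2PN median (-1.32 ± 0.17, edgeR adjusted p = 5.85e-11). Uqcr11, a small accessory subunit, and Uqcrq fell at log2 fold changes of -1.50 ± 0.29 and -1.24 ± 0.15 (edgeR adjusted p = 4.51e-06 and 3.31e-12).

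Cox5a, a subunit on the matrix side of complex IV, had 53.8 to 184 CPM (median 94.3) in parthenotes and 73.5 to 349 CPM (median 179) in 2PN embryos, and fell at a log2 fold change of -1.15 ± 0.14 (edgeR adjusted p = 1.99e-11), with 30 of 31 parthenotes below the 2PN median. Cox8a and Cox6b1 fell too, at log2 fold changes of -0.75 ± 0.13 and -0.76 ± 0.14 (edgeR adjusted p = 3.93e-07 and 3.83e-06). Cox7b was the 1 call in the other direction (0.43 ± 0.18, edgeR adjusted p = 0.0441), which the earlier edgeR fit did not make. In complex V Atp5g3, Atp5h and Atp5g1 fell at log2 fold changes of -0.88 ± 0.16, -0.84 ± 0.11 and -0.76 ± 0.13 (edgeR adjusted p = 2.69e-06, 1.17e-10 and 2.58e-07).

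The comparisons of parthenotes and of C57BL/6 x JF1/Ms embryos called parthenogenetic share their 2PN embryos, so the values are only placed side by side. Parthenotes and called-parthenogenetic embryos had log2 fold changes of -1.32 and -1.04 for Uqcr10, -0.88 and -1.25 for Atp5g3, and -0.73 and -1.39 for Ndufc1. For Cox8a the values were -0.75 and 0.25, and for Cox6b2 -0.62 and 0.70.

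Set directly against parthenotes, the C57BL/6 x JF1/Ms embryos called parthenogenetic had 7 members higher and 1 lower, where 4.98% of all genes were called (3.41% higher and 1.57% lower). Cox8a had 272 to 1919.7 CPM (median 488) in called-parthenogenetic embryos and 219 to 632 CPM (median 363) in parthenotes (1.00 ± 0.20, edgeR adjusted p = 0.000691). Ndufs5, Cox6b2 and Uqcr11 were higher by 1.48 ± 0.34, 1.32 ± 0.31 and 1.38 ± 0.44 (edgeR adjusted p = 0.00399, 0.00399 and 0.0441), and Ndufb11 was lower (-0.79 ± 0.25, edgeR adjusted p = 0.0474). These calls rest largely on embryo 10. Without it 1 of the 8 remained, Ndufa1 (1.26), and Cox8a stood at 0.51 and Cox6b2 at 0.74. limma voom called 3 members, 0 higher and 3 lower.

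Taken by cross, 1PN embryos called parthenogenetic differed from 2PN embryos in 21 members in C57BL/6 x JF1/Ms and in 51 in JF1/Ms x C57BL/6. In C57BL/6 x JF1/Ms 4 rose and 17 fell, where 31.6% of all genes were called (18.5% higher and 13.2% lower), and DESeq2's size factors gave 9 and 13. In JF1/Ms x C57BL/6 18 rose and 33 fell, where 34.8% were called (14.7% higher and 20.1% lower), and DESeq2's size factors gave 26 and 29. These factors moved the median of all genes by 0.22 in the first cross and by 0.37 in the second. With TMM factors the median log2 fold change of the members was -0.35 in C57BL/6 x JF1/Ms, against 0.19 for all genes. In JF1/Ms x C57BL/6 it was -0.51, against -0.64 for all genes, so there the members did not lie below genes in general. The medians of complexes I to V in that cross were -0.57, 1.17, -2.56, 0.12 and -0.51. Only that of complex III was below the median of all genes. The crosses share no embryo. Ndufab1, Sdha and Sdhb rose in both, which is 75% of the 4 and 16.7% of the 18 that rose. Atp5g1, Atp5g3, Atp5j, Atp5k, Ndufa2, Ndufa11, Ndufaf3, Ndufaf8, Ndufc1, Uqcr10 and Uqcrq fell in both, which is 64.7% of the 17 and 33.3% of the 33 that fell. Of all genes called, 1452 rose in both crosses (32.3% of the 4500 and 40.5% of the 3582) and 1981 fell in both (61.7% of the 3213 and 40.4% of the 4900). The overlap shrank, among members and among all genes, when the embryos that stand apart were left out. Without embryo 10, 0 members rose and 9 fell in both, and without embryos 1 and 2 these were 0 and 1 (Ndufa11). With embryo 10 and embryos 1 and 2 all left out, the members again gave 0 and 1. Of all genes 170 then rose in both (4.89% of the 3480 and 22.8% of the 747). Another 333 fell in both (14.5% of the 2299 and 38.9% of the 856). No member was called in opposite directions with all embryos in.

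Within C57BL/6 x JF1/Ms, with 8 called-parthenogenetic embryos of full depth, 6 of the 18 members of complex V fell. Atp5h had 31.1 to 98.5 CPM (median 72.6) in called-parthenogenetic and 45.4 to 202 CPM (median 123) in 2PN embryos, and fell at a log2 fold change of -1.03 ± 0.19, below the 2PN median in all 8 (edgeR adjusted p = 1.85e-05). Atp5g3 fell at a log2 fold change of -1.25 ± 0.29 and Atp5k at -0.88 ± 0.29 (edgeR adjusted p = 0.000486 and 0.0137). Ndufc1 fell at a log2 fold change of -1.39 ± 0.31, Ndufa2 at -1.21 ± 0.26 and Ndufa11 at -1.11 ± 0.33, each below the 2PN median in all 8 (edgeR adjusted p = 0.000329, 0.000191 and 0.00618). Uqcr10 and Uqcrq fell at log2 fold changes of -1.04 ± 0.29 and -0.96 ± 0.25 (edgeR adjusted p = 0.00363 and 0.00201), and Cox5a, Cox6a1 and Cox7a2 at -0.85, -0.72 and -0.59 (edgeR adjusted p = 0.00435, 0.00297 and 0.0417). Ndufaf2 rose by 0.86 ± 0.28 (edgeR adjusted p = 0.0137). Without embryo 10 the counts over all complexes were 1 higher and 16 lower. With DESeq2's size factors complex IV turned from 0 higher and 3 lower to 3 and 2 in this cross. Complex I went from 2 and 6 to 4 and 4, and complex V from 0 and 6 to 0 and 5.

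Within JF1/Ms x C57BL/6 the called-parthenogenetic embryos showed larger changes, with several members at or near 0 counts. Uqcrfs1, the Rieske iron-sulfur protein through which complex III passes electrons to cytochrome c1, had 0, 0, 18.3 and 0 CPM in embryos 1, 2, 3 and 7, against 13.2 to 311 CPM (median 144) in 2PN embryos (-5.47 ± 0.72, edgeR adjusted p = 1.03e-09). Embryo 3 was inside the 2PN range and the others had no count. Uqcrc1 had 0, 0, 9.79 and 3.99 CPM against 0.819 to 172 CPM (median 39.3) (-4.55 ± 0.90, edgeR adjusted p = 2.41e-05). Ndufs8 had 0, 0, 6.53 and 0.998 CPM against 0.264 to 64.4 CPM (median 27.9) (-4.78 ± 0.95, edgeR adjusted p = 2.71e-05). Without embryos 1 and 2 Uqcrfs1 passed, while Uqcrc1 and Ndufs8 did not (-2.74 and -2.92).

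Ndufv1, the NADH-binding subunit, had no count in any of the 4 embryos, against 0 to 28.3 CPM (median 5.22) in 2PN embryos (edgeR adjusted p = 0.0046). Its fitted fold change depends on the prior count and is not given as a size. The 2PN range reaches 0 as well, and the depth of embryos 3 and 7 limits how low a level could be seen. Of the members that rose, Ndufa3 had 54.4, 82.9, 101 and 6.48 CPM against 0.869 to 36.4 CPM (median 9.17) (2.15 ± 0.40, edgeR adjusted p = 8.7e-06), with embryo 7 below the 2PN median. Cox6b1, the widely used partner isoform of Cox6b2, had 388, 465, 208 and 38.9 CPM against 44.7 to 169 CPM (median 90.7) (1.37 ± 0.30, edgeR adjusted p = 0.000104), again with embryo 7 the lowest. Without embryos 1 and 2 Ndufa3 passed and Cox6b1 did not (0.281), nor did Ndufv1. Ndufs1, the largest iron-sulfur core subunit of complex I, passed as higher (1.597 ± 0.48, edgeR adjusted p = 0.00542) on embryo 7 alone, with 0, 5.54, 12.4 and 321 CPM against 2.87 to 59.6 CPM (median 20.03), and the sign turned without that embryo.

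The 4 embryos differed among themselves. In 12 members, all averaging at least 10 CPM in embryos 3 and 7, embryos 1 and 2 both lay over 4-fold below both embryos 3 and 7, and in 1 member, Cox6a2, embryos 1 and 2 averaged at least 10 CPM and both lay over 4-fold above (values with the isoforms). The share of all genes that meet this rule was not counted, so the 12 cannot be read as particular to the members. Genes with counts numbered 12621, 17227, 16516 and 16062 in embryos 1, 2, 3 and 7. Ndufa2, an accessory subunit of complex I, had 2.92, 5.68, 309.7 and 96.3 CPM in embryos 1, 2, 3 and 7, against a 2PN median of 174 CPM. Cox7b had 28.9, 12.2, 625 and 294 CPM, against a 2PN median of 243 CPM. Ndufb3 had 0, 1.14, 169 and 132 CPM, against a 2PN median of 63.4 CPM. In 5 of the 12 members embryos 3 and 7 were within 2-fold of the 2PN median while embryos 1 and 2 were far under it. Without embryos 1 and 2, which leaves 2 embryos of low depth, 5 members were higher and 5 lower in the cross.

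**Figure D4:**
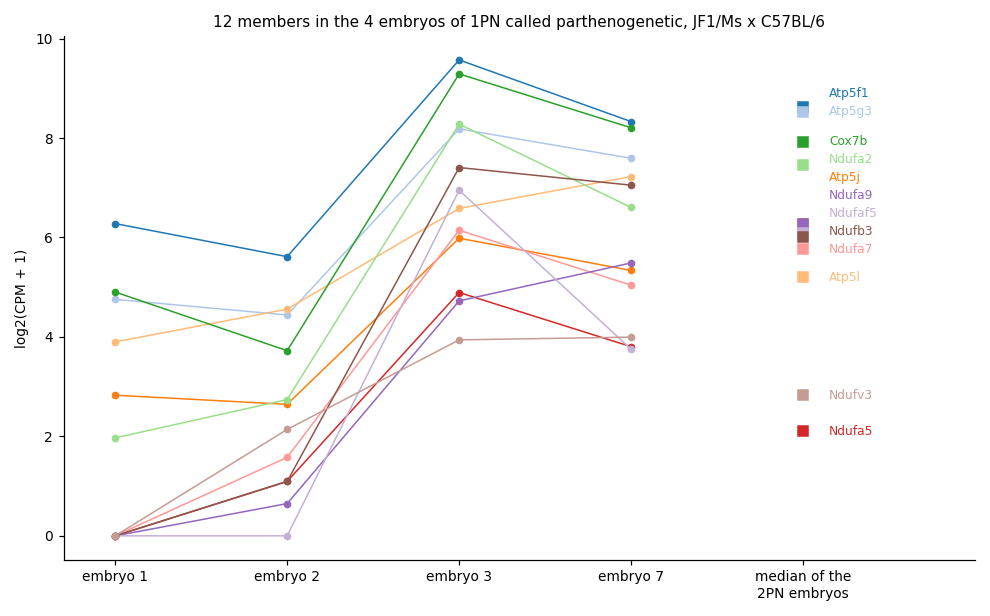
Level as log2(CPM + 1) of 12 members in each of the 4 JF1/Ms x C57BL/6 embryos called parthenogenetic, 1 line a gene, with the median of the 21 2PN embryos of the cross as squares at the right. Embryos 1 and 2 lie over 4-fold below embryos 3 and 7 in every one of these 12, which were chosen for that.

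The difference between the crosses was tested as an interaction, the called-parthenogenetic effect in JF1/Ms x C57BL/6 minus that in C57BL/6 x JF1/Ms. It passed for 31 members, 12 with a positive and 19 with a negative difference, where 15.9% of all genes passed (4.09% and 11.8%). The median difference of all genes was -0.68 and that of the members -0.24. Only 3 of the 17 named members passed under all 13 alternatives tried. These were Ndufa3 (2.64 ± 0.58, edgeR adjusted p = 0.000552), Uqcrfs1 (-5.34 ± 0.76, edgeR adjusted p = 5.12e-08) and Cox8a (1.34 ± 0.35, edgeR adjusted p = 0.00401). Sdhb and Atp5g3 did not differ beyond error between the crosses (0.75 ± 0.66 and -0.29 ± 0.47, edgeR adjusted p = 0.473 and 0.733). Leaving out embryos 1 and 2 brought the 31 to 6, 4 positive and 2 negative.

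**Figure D5:**
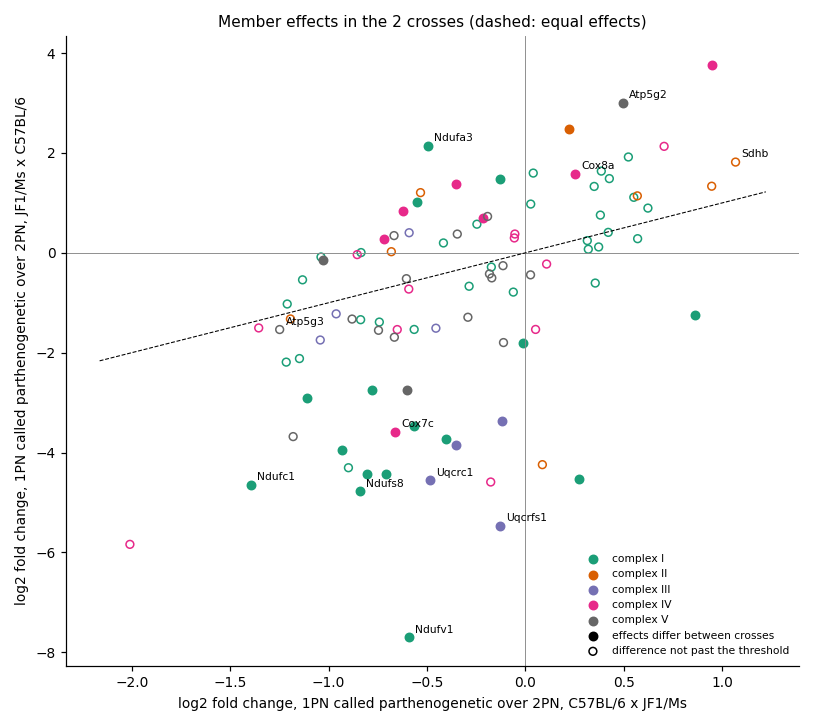
Log2 fold change of 1PN called parthenogenetic over 2PN for each tested member in JF1/Ms x C57BL/6 (vertical) against C57BL/6 x JF1/Ms (horizontal), coloured by complex. Filled points passed the test of the difference between crosses and the dashed line marks equal effects, and the axes differ in scale, with a wider spread in JF1/Ms x C57BL/6.

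The 2PN embryos of the reciprocal crosses differed in 46 members, 18 higher and 28 lower in JF1/Ms x C57BL/6 than in C57BL/6 x JF1/Ms, where 38% of all genes were called (18.8% higher and 19.2% lower). Ndufaf4 had 103 to 971 CPM (median 273) in JF1/Ms x C57BL/6 and 19.7 to 189 CPM (median 85.3) in C57BL/6 x JF1/Ms, and all 21 embryos of JF1/Ms x C57BL/6 exceeded the median of the other cross (1.93 ± 0.16, edgeR adjusted p = 2.55e-20). Ndufab1 was higher by 1.62 ± 0.14 and Cox7c by 1.89 ± 0.30 (edgeR adjusted p = 4.61e-20 and 9.69e-08). Ndufa4, now placed with complex IV despite its name, was higher by 1.46 ± 0.22 (edgeR adjusted p = 3.63e-08).

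Cox6b2 had 3.82 to 134 CPM (median 22.7) in JF1/Ms x C57BL/6 and 21.1 to 548 CPM (median 121) in C57BL/6 x JF1/Ms, a difference of -2.03 ± 0.26 (edgeR adjusted p = 8.46e-11). Ndufb7 and Ndufs8 were lower, at log2 fold changes of -1.62 and -1.43 (edgeR adjusted p = 1.01e-06 and 1.37e-06). Cox4i1 was lower at a log2 fold change of -1.11 ± 0.19 and Cox7a2l, which helps complex IV join supercomplexes, at -0.95 ± 0.23 (edgeR adjusted p = 4.04e-07 and 0.000424). In complex III Uqcrb, Uqcr11 and Uqcrfs1 were higher (1.28, 0.97 and 0.91) and Uqcrq and Uqcrh lower (-0.66 and -0.63), with edgeR adjusted p from 8.02e-05 to 0.00338. In complex V Atp5l was higher (1.27 ± 0.23, edgeR adjusted p = 3.45e-06), and Atp5s, Atp5j2 and Atp5c1 were lower (-1.43, -1.12 and -1.06, edgeR adjusted p = 0.000265, 2.52e-05 and 2.17e-06). The crosses also differed in depth, since 7 of the 21 libraries of JF1/Ms x C57BL/6 and 1 of the 43 of C57BL/6 x JF1/Ms held under 2000000 counts. Without these libraries 19 of the 21 named members still passed, and Cox8a and Sdhaf2 did not.

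Several subunits of complex IV and subunit c of complex V have more than 1 gene, and their shares differed between groups. The shares below are of counts per gene, summed over a group and not divided by length, so they are read across groups and not between genes. Cox6b2 took 66.3% of the Cox6b counts in C57BL/6 x JF1/Ms called-parthenogenetic embryos (57.8% without embryo 10), 52.0% in parthenotes, 48.0% in 1PN and 50.7% in 2PN embryos of that cross. In JF1/Ms x C57BL/6 it took 37.1% in called-parthenogenetic, 10.1% in 1PN and 25.8% in 2PN embryos. Cox4i2, the isoform known from lung, took 4.61%, 6.88%, 5.32% and 3.03% of the Cox4i counts in the same order in C57BL/6 x JF1/Ms and the parthenotes. In JF1/Ms x C57BL/6 it had 0 counts in called-parthenogenetic embryos, 1 count in 1PN embryos and 0.569% of the Cox4i counts in 2PN embryos. Its 2PN levels were 0 to 3.82 CPM (median 0.476) in JF1/Ms x C57BL/6 and 0.59 to 43.5 CPM (median 6.01) in C57BL/6 x JF1/Ms (-3.47 ± 0.54, edgeR adjusted p = 3.89e-08).

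Cox7b2 had no count in any of the 12 called-parthenogenetic embryos or the 31 parthenotes. It had 96 counts over all 3 1PN embryos of JF1/Ms x C57BL/6, with 8.06, 17.2 and 5.76 CPM, and 100 counts in 6 of the 21 2PN embryos of that cross. In C57BL/6 x JF1/Ms it had 6 counts over 11 1PN embryos and 18 counts over 43 2PN embryos. Atp5g2 took 9.39% of the subunit c counts in JF1/Ms x C57BL/6 called-parthenogenetic embryos, against 0.115% in 1PN and 0.256% in 2PN embryos, and it took 2.02% in the called-parthenogenetic ones without embryos 1 and 2. In C57BL/6 x JF1/Ms it took 0.913% in called-parthenogenetic embryos, against 0.333% in 1PN and 0.359% in 2PN embryos, and 0.523% in called-parthenogenetic embryos without embryo 10. Cox6a2, the isoform of heart and muscle, was low everywhere, with 23.1, 8.24, 0 and 0 CPM in the 4 embryos and at most 2.61 CPM in 2PN embryos of the cross. Neither its call over both crosses nor that of Cox7b2 passed without embryos 1 and 2 (0.905 and -2.89).

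The partners of the nuclear subunits are the 13 mitochondrially encoded ones. Between called-parthenogenetic and 2PN embryos of both crosses 1 was higher and 0 were lower (mt-Nd5, a core subunit of complex I, 0.44 ± 0.19, edgeR adjusted p = 0.0452), which did not pass without embryo 10 (0.327). With DESeq2's size factors, and also without embryos 1 and 2, 2 were higher and 0 lower. Of all genes 44.8% were called in that comparison (26.6% higher and 18.3% lower). In parthenotes 6 of the 13 were higher and 0 lower, where 50.9% of all genes were called (29.1% higher and 21.8% lower). Among the 6 were mt-Atp6 (0.73 ± 0.16) and mt-Atp8 (0.63 ± 0.16), both parts of complex V (edgeR adjusted p = 3.46e-05 and 0.000489). The summed level of all 13 was 42012 to 137506 (median 62461) CPM in C57BL/6 x JF1/Ms called-parthenogenetic embryos, 31554 to 141353 (median 68861) CPM in parthenotes and 34679 to 77400.3 (median 51234) CPM in 2PN embryos of C57BL/6 x JF1/Ms. In JF1/Ms x C57BL/6 it was 9284, 17672, 41993 and 57798 CPM in called-parthenogenetic and 5808 to 82214 (median 26027) CPM in 2PN embryos. In parthenotes the nuclear members of complex V that were called fell while mt-Atp6 and mt-Atp8 rose.

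Cyc1, the cytochrome c1 subunit of complex III that the symbol rule misses, had 3.85 to 59.5 CPM (median 32.2) in C57BL/6 x JF1/Ms called-parthenogenetic and 12.3 to 112 CPM (median 56.9) in 2PN embryos, and fell at a log2 fold change of -1.12 ± 0.34 in that cross (edgeR adjusted p = 0.00762). In 2PN embryos of JF1/Ms x C57BL/6 it had 0 to 30.9 CPM (median 9.53), lower than in C57BL/6 x JF1/Ms (-2.18 ± 0.26, edgeR adjusted p = 5.67e-12). Cycs, cytochrome c itself, was called in none of the 9 comparisons, with 0.26 ± 0.21 between called-parthenogenetic and 2PN embryos in the fit of both crosses (edgeR adjusted p = 0.319). Atpif1, the inhibitor of the ATP synthase, fell in JF1/Ms x C57BL/6 called-parthenogenetic embryos (-1.53 ± 0.37, edgeR adjusted p = 0.000523) and not detectably in C57BL/6 x JF1/Ms (-0.11 ± 0.23, edgeR adjusted p = 0.751), and the crosses differed (-1.42 ± 0.42, edgeR adjusted p = 0.0119). Neither passed without embryos 1 and 2 (-0.55 and -0.53).

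Of 36 tested assembly factors whose symbols lie outside the rule, 5 rose and 12 fell between called-parthenogenetic and 2PN embryos in the fit of both crosses, and 6 rose and 13 fell in parthenotes. These and the lists that follow are read beside the 44.8% of all genes called in the first comparison (26.6% higher and 18.3% lower) and the 50.9% in parthenotes (29.1% higher and 21.8% lower). Without embryos 1 and 2, 3 of these assembly factors rose and 8 fell, and with DESeq2's size factors 7 rose and 8 fell. Of 16 regulators of these genes and of mitochondrial DNA, 4 rose and 10 fell in the first comparison and 1 rose and 8 fell in parthenotes. Gabpa, a subunit of the ETS factor whose core was searched above, fell at a log2 fold change of -1.52 ± 0.34 in the first comparison and at -1.01 ± 0.20 in parthenotes (edgeR adjusted p = 0.00013 and 1.16e-05). Nrf1 fell at log2 fold changes of -0.62 ± 0.23 and -1.02 ± 0.16 (edgeR adjusted p = 0.0241 and 6.81e-08), the first of which did not pass without embryo 10 (-0.51) or with DESeq2's size factors (-0.45), and Polrmt, the mitochondrial RNA polymerase, at -1.39 ± 0.35 and -1.88 ± 0.26 (edgeR adjusted p = 0.000696 and 4.8e-10). Tfam, which packages mitochondrial DNA, rose by 1.67 ± 0.35 in the first comparison (edgeR adjusted p = 5.71e-05), and in parthenotes it had 0.41 ± 0.28 (edgeR adjusted p = 0.21). Of 17 genes of the tricarboxylic acid cycle and pyruvate dehydrogenase 5 rose and 4 fell in the first comparison and 4 rose and 4 fell in parthenotes. Of 9 carriers of ATP, phosphate and pyruvate 2 rose and 2 fell in each.

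Within 1 group the correlations between members were mixed in sign. Across the 43 2PN embryos of C57BL/6 x JF1/Ms, the 39 members averaging at least 50 CPM had a median pairwise correlation of 0.11, from -0.60 to 0.81, and 68.3% of the pairs were positive. These embryos share a protocol and differ in depth, and the same values were not computed for other genes, so they are only a description.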

How the data were processed

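Single-embryo libraries were made with SMART-Seq v4 and Nextera XT per the labels' protocols. The authors deposited 1 table of estimated counts per gene (43421 genes, 125 libraries), in which 28.4% of the non-zero values are not whole. Per the submitters' processing notes, the tools were HISAT2 2.0.5 and featureCounts 2.0.0 with GRCm38. The annotation, the strand setting and the counting of reads that match several genes are, in the sources used here, not given. Whether reads of JF1/Ms alleles mapped to that genome as well as C57BL/6 ones was not tested, and it bears on every comparison of the crosses and of parthenotes with hybrids. Reads shared between near-identical members cannot be told apart (both Atp5o rows, Cox6c and Cox6c2, Ndufs6 and Ndufs6b, Ndufa11 and Ndufa11b, Ndufb4 and Ndufb4c, and the 9 -ps rows). Gene symbols were matched for 43266 identifiers, and coordinates and promoters are RefSeq's for GRCm38.p6.

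The members, the lists and the motifs were chosen with earlier results of these data known. Of 125 libraries 4 labelled dead or of low quality were left out, and kept libraries held 533276 to 4887270 counts. No 2 libraries of a group agreed within sampling noise (lowest chi-square per gene 15.0). Counts were rounded and tested with edgeR 4.0.16 (R 4.3.3), using TMM factors, its filter on low counts, the quasi-likelihood F test and Benjamini-Hochberg adjustment over all genes at 0.05. The 3 comparisons of both crosses came from a fit of group and cross (22785 genes) and the other 6 from a fit of 7 group means (24380 genes). CPM values are counts per 1000000 counts of the library, and differences between embryos within counting error are not resolved. Errors of log2 fold changes are approximate standard errors. Each is the absolute log2 fold change divided by the square root of the F statistic, and the approximate 95% intervals use it. They are least exact where a group is at or near 0 counts. Fits were tested on simulated data.

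In each comparison and complex the text names up to 3 members with the highest and up to 3 with the lowest log2 fold change past the threshold with at least 10 CPM in the higher group. Isoforms, Cyc1, Cycs and Atpif1 were added by name, and members named outside this rule, such as Sdhc, Ndufv1, Ndufs1 and those given for comparison, were chosen after their values were seen. A member that the rule also names is not reported here. Alternatives were DESeq2 1.42.0 size factors, no filter, DESeq2, limma 3.58.1 voom, leaving out libraries under 2000000 counts, each replicate of the groups of 3 to 4, a term for embryos listed after the parthenotes in the deposit, and a replicate block. An earlier form of edgeR's fit and leaving out embryos 1 and 2 of JF1/Ms x C57BL/6 or embryo 10 of C57BL/6 x JF1/Ms, all called parthenogenetic, were chosen after seeing the data. Tables and figures used Python 3.11.15, pandas 2.3.3 and matplotlib 3.10.9.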

Additional observations from a re-analysis of the deposited data

Results flagged for a closer look

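Within the 8 C57BL/6 x JF1/Ms embryos called parthenogenetic, 6 members had 1 embryo far above the rest. Embryo 10 was the one for Cox8a (1919.7 CPM, the next 985 CPM), Cox6b2 (832 CPM, the next 375 CPM), Sdhb (58.6 CPM, the next 24.8 CPM) and Ndufs6 (45.3 CPM, the next 16.98 CPM). Embryo 14 was the one for Uqcr10 (174 CPM, the next 69.8 CPM) and Uqcrq (184 CPM, the next 86.4 CPM). Among the 4 of JF1/Ms x C57BL/6, embryo 3 stood apart for the complex V sum (3089.6 CPM, the next 1677 CPM) and Ndufc1 (3.92 CPM, the next 0), embryo 1 for Sdha (105 CPM, the next 38.1 CPM) and embryo 2 for Atp5d (2.84 CPM, the next 0). That makes 10 of 56 sets of values. The members in these sets were picked by a comparison that includes the same embryos, and the sets share embryos. The count therefore cannot be set against a chance rate.

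For 17 named members the called-parthenogenetic effect differed between crosses, as a log2 difference of JF1/Ms x C57BL/6 minus C57BL/6 x JF1/Ms. It was positive for Ndufa3 (2.64), Atp5g2 (2.51), Sdhaf4 (2.26), Cox6b1 (1.72), Ndufa13 (1.602), Ndufs3 (1.58), Cox6c2 (1.46), Cox8a (1.34) and Atp5h (0.88). It was negative for Uqcrfs1 (-5.34), Ndufaf6 (-4.81), Uqcrc1 (-4.07), Ndufs8 (-3.94), Uqcrb (-3.50), Cox7c (-2.92) and Atp5c1 (-2.14). The fitted difference of Ndufv1 (-7.10) is no bound, because it had 0 counts in all 4 JF1/Ms x C57BL/6 embryos. RefSeq annotates Cox6c2 as a pseudogene. Ndufa3, Uqcrfs1 and Cox8a passed under all alternatives tried for this difference, and the others lost the call under at least 1.

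Libraries left out of the comparisons exceeded the highest of the 43 2PN embryos of C57BL/6 x JF1/Ms in some sums. The mitochondrially encoded subunits summed to 192219 CPM in the 1PN embryo labelled dead and 109827 CPM in 1PN embryo 8 labelled low quality, against at most 77400.3 CPM. In 1PN embryo 6, also labelled low quality, complex II summed to 203 CPM and complex IV to 3945 CPM, against at most 155 and 3585 CPM.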

How the results depend on the processing

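Of 98 tested members, 47 were called for 1PN called parthenogenetic against 2PN embryos in the fit of both crosses, 30 without embryos 1 and 2 of the JF1/Ms x C57BL/6 group and 10 with the replicate number as a block. Within C57BL/6 x JF1/Ms the 21 calls became 4 with the block. Within JF1/Ms x C57BL/6 the 51 calls became 10 without embryos 1 and 2 and 0 with the block, a fit that keeps only the 4 embryos and 4 numbered alike. For the difference between the crosses, 31 calls became 6 without embryos 1 and 2. Leaving out 1 of the JF1/Ms x C57BL/6 embryos called parthenogenetic gave 15 (without embryo 1) to 36. Without embryo 10 of C57BL/6 x JF1/Ms there were 17 positive and 20 negative differences. Between C57BL/6 x JF1/Ms embryos called parthenogenetic and parthenotes, 8 calls became 5 with no filter, 3 with limma voom, 5 with the earlier edgeR fit, 1 without embryo 10 and 0 with the block. The cause was not tested, other than that the block and the left-out embryos leave fewer embryos. The replicate numbers do not pair the embryos, since same-numbered embryos correlated at a median r of -0.10 to 0.07 by pair of groups, and they carry no shared parent or day in the labels. No paired analysis was possible for 1PN called parthenogenetic against 1PN embryos, which share no number, nor for the difference between the crosses.

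Ndufs1 reversed in JF1/Ms x C57BL/6. Its log2 fold change of 1.597 became -2.09 with limma voom, -2.98 without libraries under 2000000 counts, -1.43 with the block, and -2.18 to 2.10 on leaving out 1 embryo, the lowest without embryo 7. Over all named members and alternatives 1367 values kept direction and call, 240 lost the call and 4 reversed. In the comparisons with JF1/Ms x C57BL/6 embryos called parthenogenetic, 4 embryos and the depth of 2 of them limit what can be called.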
